A study of Mus musculus with 13 samples.

Results

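The genes described here are 8 enzymes of cholesterol synthesis, *Hmgcs1*, *Mvd*, *Idi1*, *Fdps*, *Fdft1*, *Sqle*, *Lss* and *Cyp51*, chosen by name and found in the count table through their Ensembl identifiers. All 8 were among the 47643 genes listed, and all 8 were among the 17285 genes with enough reads to be tested. Their mRNA was measured by RNA-seq in the isolated brain vasculature of 13 male CD1 mice (an outbred stock) aged 8 to 10 weeks. The 4 sham-vehicle mice received PBS and the vehicle of DMSO, Cremophor and saline. The 5 LPS-vehicle mice received intraperitoneal lipopolysaccharide (LPS, a bacterial cell wall component) of *Salmonella enterica* typhimurium at 3 mg/kg at 0, 6 and 24 h, with the same vehicle. The 4 LPS-CPD-4645 mice received the same LPS and, per the labels, 10 mg/kg subcutaneous CPD-4645 30 min after each LPS dose; the study's text gives a longer delay in another place. CPD-4645 is a carbamate that inhibits monoacylglycerol lipase, the enzyme that degrades the endocannabinoid 2-AG. Tissue was taken at 28 h from brains that were not perfused, and no group received CPD-4645 without LPS.

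Cells build cholesterol from acetyl-CoA through mevalonate, isoprenoid phosphates, squalene and lanosterol. When sterols in the endoplasmic reticulum run low, the transcription factor SREBP-2 (*Srebf2*) is released from its complex with SCAP and INSIG proteins and switches on the genes of this pathway. The brain makes nearly all of its own cholesterol, because plasma lipoproteins do not cross the intact blood-brain barrier, and oligodendrocytes and astrocytes are major producers.

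In order of the pathway, *Hmgcs1* (ENSMUSG00000093930, chromosome 13, 119690379 to 119708260, plus strand, GRCm38) encodes the cytosolic HMG-CoA synthase, an early enzyme of the mevalonate pathway. *Mvd* (ENSMUSG00000006517, chromosome 8, 122433601 to 122443422, minus strand) encodes mevalonate diphosphate decarboxylase, which forms isopentenyl diphosphate. *Idi1* (ENSMUSG00000058258, chromosome 13, 8885501 to 8892451, plus strand) encodes the isomerase that turns isopentenyl into dimethylallyl diphosphate, and *Fdps* (ENSMUSG00000059743, chromosome 3, 89093588 to 89101959, minus strand) encodes farnesyl diphosphate synthase. *Fdft1* (ENSMUSG00000021273, chromosome 14, 63145150 to 63179578, minus strand) encodes squalene synthase, the first enzyme committed to sterols. *Sqle* (ENSMUSG00000022351, chromosome 15, 59315077 to 59331192, plus strand) encodes squalene epoxidase. *Lss* (ENSMUSG00000033105, chromosome 10, 76531588 to 76557138, plus strand) encodes the lanosterol synthase that closes the sterol rings, and *Cyp51* (ENSMUSG00000001467, chromosome 5, 4081145 to 4104746, minus strand) encodes the demethylase that acts on lanosterol.

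SREBP-2 acts through sterol regulatory elements near the start site, usually beside sites for NF-Y and Sp1, so the promoters of members that were lower after LPS are shown. The sequences come from RefSeq windows on GRCm38.p6, written 5′ to 3′ on the strand of the gene, and stop at the start site or before the first annotated exon. Capitals mark matches on either strand to TCACNCCAC (a sterol regulatory element), CCAAT (the NF-Y box, which reads ATTGG on the other strand) and GGGCGG (the Sp1 box, which reads CCGCCC on the other strand). The windows are chr13:119690101-119690350 on the plus strand for *Hmgcs1*, chr8:122443423-122443672 on the minus strand for *Mvd* and chr5:4104747-4104947 on the minus strand for *Cyp51*.
Hmgcs1: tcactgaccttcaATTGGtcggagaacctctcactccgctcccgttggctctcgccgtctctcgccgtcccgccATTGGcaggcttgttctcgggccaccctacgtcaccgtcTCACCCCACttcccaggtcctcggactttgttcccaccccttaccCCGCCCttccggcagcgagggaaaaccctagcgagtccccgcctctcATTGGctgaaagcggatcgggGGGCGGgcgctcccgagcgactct
Mvd: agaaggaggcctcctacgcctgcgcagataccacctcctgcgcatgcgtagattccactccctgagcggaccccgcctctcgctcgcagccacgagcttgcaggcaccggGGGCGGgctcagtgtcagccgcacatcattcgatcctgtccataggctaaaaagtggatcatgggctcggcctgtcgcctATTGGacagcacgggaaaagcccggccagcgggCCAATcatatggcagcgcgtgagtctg
Cyp51: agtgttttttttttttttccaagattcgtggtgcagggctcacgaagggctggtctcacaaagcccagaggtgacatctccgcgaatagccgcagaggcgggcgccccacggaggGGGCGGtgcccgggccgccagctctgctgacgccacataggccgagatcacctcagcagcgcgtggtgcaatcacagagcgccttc
The *Hmgcs1* window held TCACNCCAC at -137 to -129 bases from the start site, on the strand of the gene. It also held 4 CCAAT boxes, 3 of them in the printed bases. The *Mvd* window held CCAAT boxes at -60 to -56 and at -27 to -23, and the *Cyp51* window held 1 at -29 to -25, inside the annotated exon and therefore not printed.

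RefSeq windows of 300 bases (250 before the start site and 50 from it on) were found for 5 of the 8 members, those named above with *Idi1* and *Lss*. TCACNCCAC occurred in 1 of these 5 windows and in 1.24% of 32851 promoter windows. CCAAT occurred in 5 of the 5 and in 37.4% of all windows, and GGGCGG in 5 of the 5 and in 35.7%. Over the 19 windows of 16 of the 19 synthesis enzymes considered in these data, CCAAT was found in 78.9%, GGGCGG in 84.2% and TCACNCCAC in 5.26%. No matches overlapped within the members' windows. A match is a string of letters and not evidence of binding. Other forms of the sterol regulatory element were not searched, so a window without TCACNCCAC may still hold one. *Fdps*, *Fdft1* and *Sqle* had no window in the table.

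**Figure D1:**
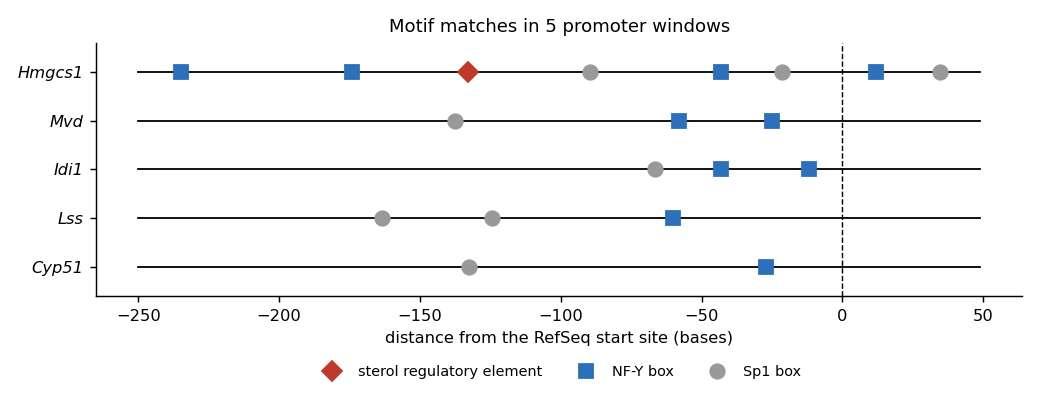
Positions of motif matches in the promoter windows of 5 cholesterol synthesis genes. The x axis is the distance from the RefSeq start site in bases (dashed line at 0), and each row is 1 gene. Symbols mark the middle of each match on either strand. All 5 windows hold an NF-Y and an Sp1 box. Only that of *Hmgcs1* holds TCACNCCAC, the 1 form of the sterol regulatory element searched.

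The libraries held between 7813559 and 55133373 counted reads, and the shallowest were those of LPS-vehicle mouse 3 and of LPS-CPD-4645 mouse 1 (12548404). Per kilobase of exon, the 10 endothelial markers averaged 17.0 CPM (counts scaled to a common library total) in sham mice, against 141 CPM for 10 oligodendrocyte markers and 193 CPM for 10 neuron markers, so the vascular fraction contained much RNA of other brain cells. No list had a marker at 0 in every library. In such bulk RNA, fewer cells of a type and less RNA per cell cannot be told apart.

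The members were far from equally abundant. In sham mice, CPM per kilobase of exon were 52.4 ± 9.08 for *Hmgcs1* (SD, n = 4 here and below for sham), 23.7 ± 1.88 for *Fdft1*, 19.9 ± 3.81 for *Cyp51*, 12.4 ± 1.44 for *Sqle* and 10.9 ± 1.37 for *Mvd*. *Lss* was at 0.949 ± 0.124 CPM per kilobase, *Idi1* at 0.370 ± 0.0947 and *Fdps* at 0.331 ± 0.0356. In that order, the ranges over mice overlapped between *Fdft1* and *Cyp51*, between *Sqle* and *Mvd*, and between *Idi1* and *Fdps*, and the other neighbours did not overlap. Per-length levels depend on the annotated exons. *Idi1* shared 23.6% of its 75-base transcript windows with other genes, all of them predicted genes, and *Fdps* shared 23.5%. Reads from such stretches fit more than 1 gene, at another place in the genome or, for *Gm43738* over *Fdps* on the same strand and *Gm48574* over *Idi1* on the other, at the same place, so the low values of both are uncertain. *Gm43738* had 0 counts in every library. How reads that fit both genes were counted was not tested, so this 0 does not show whether the overlap took reads from *Fdps*.

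The first comparison, LPS-vehicle with sham-vehicle mice, asks how the vascular fraction responds to systemic LPS. All 8 members had a fitted log2 fold change below 0, with a median of -0.61 against -0.00 for all genes tested. Of the 8, *Hmgcs1*, *Mvd*, *Sqle* and *Cyp51* fell (edgeR quasi-likelihood test, Benjamini-Hochberg adjusted p of at most 0.05 over all genes tested) and 0 rose. Among all genes tested, 8.86% fell and 11.1% rose by the same rule, 19.9% in all. None of the members changed by 2-fold with such a p, against 5.68% of genes. The groups did not overlap for *Hmgcs1*, *Fdps*, *Sqle* and *Cyp51*, all lower after LPS, against 8.44% of genes not overlapping and lower and 9.68% not overlapping and higher.

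*Hmgcs1*, the most abundant member, was at 206, 245, 213 and 298 CPM in the 4 sham mice and at 142, 108, 184, 131 and 117 CPM in the 5 LPS-vehicle mice. Each LPS-vehicle mouse was below the lowest sham mouse. The mean went from 241 ± 41.7 to 136 ± 29.3 CPM (n = 5 here and below for LPS-vehicle), a log2 fold change of -0.82 ± 0.15 (SE, edgeR adjusted p = 0.00049).

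*Sqle*, a rate-limiting step of the sterol branch, was at 64.0, 64.2, 66.8 and 80.7 CPM in sham mice and at 44.2, 44.5, 40.7, 45.0 and 45.3 CPM after LPS. It had the tightest LPS-vehicle group of the 8 members, with a coefficient of variation of 4.25%. Its log2 fold change was -0.65 ± 0.09 (SE, edgeR adjusted p = 2.7e-05), from a mean of 68.9 ± 7.97 to 44.0 ± 1.87 CPM.

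*Cyp51* was at 79.6, 70.7, 92.0 and 109.6 CPM in sham mice and at 59.3, 59.6, 58.2, 53.1 and 47.9 CPM in LPS-vehicle mice, again without overlap. From a mean of 88.0 ± 16.8 CPM to one of 55.6 ± 5.06 CPM, it fell by 0.66 ± 0.12 on the log2 scale (SE, edgeR adjusted p = 0.00048). An end of *Cyp51* overlaps *Akap9* on the other strand by 166 bases, and *Akap9* was at 38.6 to 57.4 CPM over the 13 libraries.

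*Mvd* was at 17.6, 20.5, 19.4 and 23.7 CPM in sham mice and at 16.0, 17.8, 14.5, 8.71 and 13.7 CPM after LPS. The highest LPS-vehicle value lay just above the lowest sham value, so the groups overlapped. *Mvd* lies along its whole length of 9822 bases over *Gm20388* on the other strand, which had 0 counts in every library, and none of the 75-base windows of *Mvd* occur in another gene. The log2 fold change of -0.52 ± 0.18 (SE) passed narrowly (edgeR adjusted p = 0.048) and no longer passed under 14 of 22 other settings. These include leaving out any 1 of sham mice 1 to 4, LPS-vehicle mice 1, 3, 4 and 5, or LPS-CPD-4645 mice 2 and 4, where it was between -0.58 and -0.38 with edgeR adjusted p from 0.052 to 0.15.

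*Fdps* was at 1.31, 1.61, 1.27 and 1.38 CPM in sham mice and at 0.652, 0.628, 0.126, 0.630 and 0.686 CPM in LPS-vehicle mice. The groups did not overlap, but these are few reads: 28 to 46 in sham libraries and 1 to 35 in LPS-vehicle libraries, the 1 being in the shallow library of mouse 3. Its log2 fold change was -1.26 ± 0.49 (SE, 95% interval -2.29 to -0.23, edgeR adjusted p = 0.080), which passed without LPS-CPD-4645 mouse 1 in the fit (edgeR adjusted p = 0.040), with DESeq2 (0.044) and with only the sham and LPS-vehicle mice in the fit (0.039).

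The other 3 members did not pass. *Fdft1* was at 99.7, 110.4, 91.0 and 99.1 CPM in sham mice and at 81.0, 95.6, 101.6, 77.4 and 104 CPM after LPS, which gave -0.12 on the log2 scale (95% interval -0.32 to 0.08, edgeR adjusted p = 0.41). *Lss* spanned 8.96 to 11.9 CPM in sham and 6.43 to 11.1 CPM in LPS-vehicle mice, and its fitted change was -0.26 on the log2 scale (95% interval -0.61 to 0.09, edgeR adjusted p = 0.31). *Idi1* spanned 1.05 to 1.75 CPM and 0.309 to 1.4 CPM, and its fitted change was -0.58 with a 95% interval of -1.44 to 0.28 (edgeR adjusted p = 0.35). *Idi1* had 6 to 53 reads per library, and its interval also holds the change of *Hmgcs1*, so a difference of that size was not detectable.

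**Figure D2:**
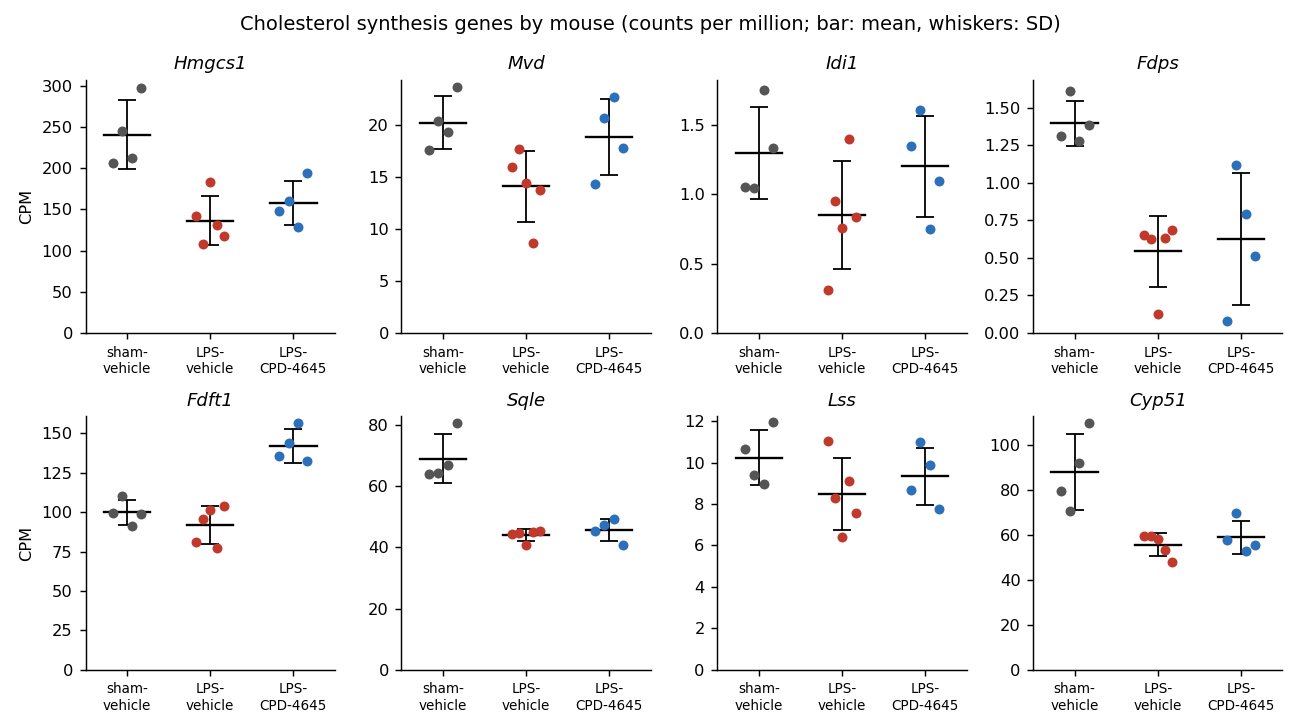
CPM (y axis, from 0) of the 8 cholesterol synthesis genes in each mouse of the 3 groups (x axis). Points are mice, long bars are means and whiskers are SD (n = 4 sham-vehicle, 5 LPS-vehicle and 4 LPS-CPD-4645); *Hmgcs1*, *Sqle* and *Cyp51* are lower in both LPS groups, while *Fdft1* is highest in the LPS-CPD-4645 mice.

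The second comparison, LPS-CPD-4645 with LPS-vehicle mice, asks what the inhibitor changed in LPS-treated animals. Of the 8 members, *Fdft1* rose and 0 fell, where 14.1% of all genes tested rose and 16.4% fell, 30.5% in all. The other 7 did not pass, although all 8 fitted log2 fold changes were above 0, with a median of 0.19 against -0.02 for all genes. None changed by 2-fold with an adjusted p of at most 0.05, against 5.9% of genes. The groups did not overlap for *Fdft1*, higher with CPD-4645, against 11.1% of genes not overlapping and higher and 12% not overlapping and lower.

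*Fdft1* was at 136, 144, 157 and 133 CPM in the 4 LPS-CPD-4645 mice, each above every LPS-vehicle mouse and every sham mouse. The mean of 142 ± 10.8 CPM (n = 4 here and below for LPS-CPD-4645) stood against 91.9 ± 12.1 CPM in LPS-vehicle mice, a log2 fold change of 0.63 ± 0.09 (SE, edgeR adjusted p = 0.00012) that passed under all 22 other settings. *Fdft1* overlaps *Ctsb*, the gene of cathepsin B, on the other strand by 774 bases, and 21.8% of its 75-base windows occur in *Ctsb* or a predicted gene. *Ctsb* was at 752 to 860 CPM in sham, 799 to 1008 CPM in LPS-vehicle and 874 to 981 CPM in LPS-CPD-4645 mice, and its part in the *Fdft1* counts was not tested.

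*Hmgcs1*, *Sqle* and *Cyp51*, which fell after LPS, did not pass in either direction with CPD-4645. *Sqle* was at 45.4, 47.4, 49.2 and 40.7 CPM, with a log2 fold change against LPS-vehicle of 0.05 (95% interval -0.13 to 0.23, edgeR adjusted p = 0.69). *Cyp51* was at 57.7, 69.6, 52.9 and 55.4 CPM, a difference of 0.08 on the log2 scale (95% interval -0.16 to 0.33, edgeR adjusted p = 0.62). The upper ends of these 2 intervals lie below the size of the fall of either gene after LPS. For *Hmgcs1*, at 148, 159.6, 129 and 194 CPM, the log2 fold change was 0.22 with a 95% interval of -0.09 to 0.52 (edgeR adjusted p = 0.28).

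*Mvd* was at 14.3, 20.7, 22.7 and 17.9 CPM with CPD-4645, and its log2 fold change against LPS-vehicle was 0.42 ± 0.18 (SE, 95% interval 0.05 to 0.80, edgeR adjusted p = 0.080). It passed when LPS-CPD-4645 mouse 1 was left out (0.54, edgeR adjusted p = 0.033) and when LPS-vehicle mouse 2 was left out (0.53, edgeR adjusted p = 0.037). *Idi1* spanned 0.753 to 1.61 CPM and *Lss* 7.77 to 11.0 CPM, with log2 fold changes of 0.47 (95% interval -0.40 to 1.34) and 0.13 (95% interval -0.23 to 0.48). *Fdps* was at 0.0791, 1.12, 0.790 and 0.510 CPM, the first of these being 1 read, and its interval of -0.89 to 1.24 allowed a change in either direction.

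Set beside sham-vehicle mice, the LPS-CPD-4645 mice show where the members stood at the end of treatment. This comparison uses the same LPS-CPD-4645 libraries as the second and the same sham libraries as the first. *Fdft1* was above sham (0.51 ± 0.10, SE, edgeR adjusted p = 0.00067), while *Hmgcs1* (-0.61 ± 0.15, SE, edgeR adjusted p = 0.0045), *Sqle* (-0.59 ± 0.09, SE, edgeR adjusted p = 6.5e-05) and *Cyp51* (-0.58 ± 0.12, SE, edgeR adjusted p = 0.0013) were below it. So 1 of 8 was higher and 3 of 8 were lower, against 19.5% and 19.3% of all genes (38.8% in all), and 0 reached 2-fold, against 11.1%. *Fdft1* did not overlap with sham and was higher, against 18.7% of genes, and *Hmgcs1*, *Fdps*, *Sqle* and *Cyp51* did not overlap and were lower, against 18.8% of genes. *Mvd*, *Idi1* and *Lss* had log2 fold changes of -0.09, -0.11 and -0.13, with 95% intervals of -0.49 to 0.30, -1.02 to 0.79 and -0.50 to 0.24. *Fdps* was at -1.09, with an interval of -2.19 to 0.01 (edgeR adjusted p = 0.11).

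**Figure D3:**
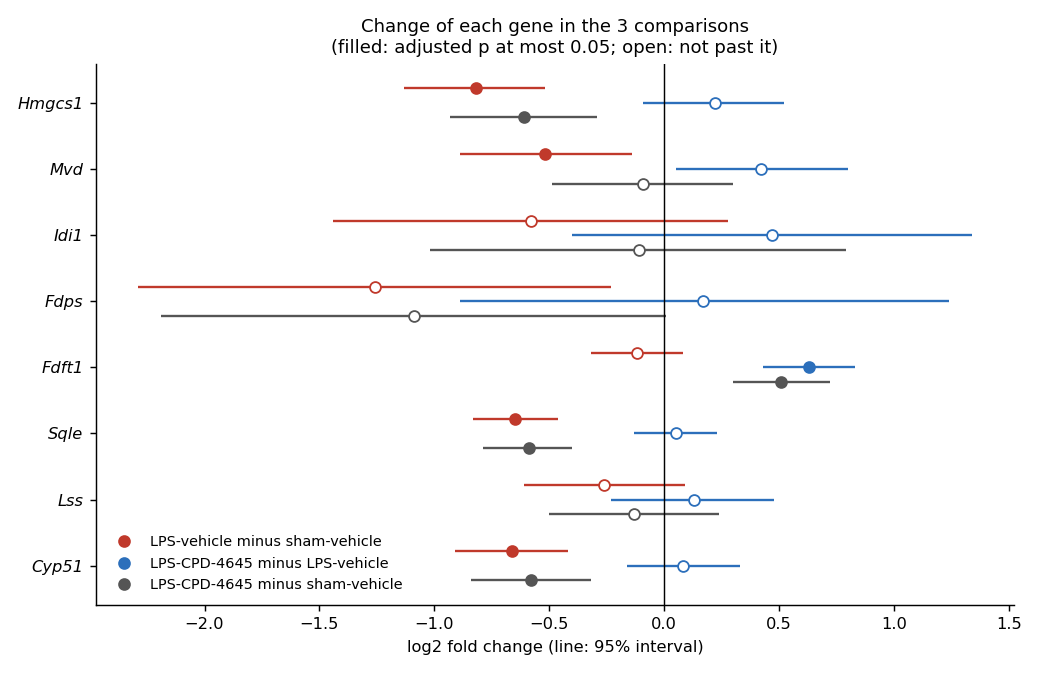
Log2 fold change (x axis) of each of the 8 genes (y axis) in the 3 comparisons, told apart by colour. Points are edgeR estimates, lines are 95% intervals, and filled points have an adjusted p of at most 0.05; the intervals of *Idi1* and *Fdps* are the widest, and *Fdft1* is the 1 gene to the right of 0 in both comparisons of the LPS-CPD-4645 mice.

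The members differed in their profiles over the mice, with *Fdft1* furthest from their mean. On log2 CPM standardised per gene, their mean was 0.52 to 1.26 in sham mice, -0.81 to -0.45 in LPS-vehicle mice and -0.35 to 0.58 in LPS-CPD-4645 mice. Sham mouse 4 was the highest of its group for 5 of the 8 members. The root mean square difference of a member from this mean profile was taken over the 13 mice. It was smallest for *Sqle* (0.507) and *Cyp51* (0.519) and largest for *Idi1* (0.855) and *Fdft1* (1.03). Counting noise raises this difference and was not separated from it, and *Idi1* had only 6 to 53 reads per library. Of the tested genes that no pathway list holds, and that averaged 1 CPM or more, the 5 with the most similar profiles were *Bmp4* (0.431), *Crhbp* (0.432), *Vat1* (0.442), *Gap43* (0.447) and *Arsg* (0.454). *Gap43*, a gene of growing axons, was at 391 to 549 CPM in sham, 203 to 256 CPM in LPS-vehicle and 271 to 359 CPM in LPS-CPD-4645 mice. *Bmp4* encodes a bone morphogenetic protein and *Crhbp* the protein that binds corticotropin-releasing hormone.

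Marker sums of some other cell types were lower after LPS, as were 4 of the 8 members, and those of others were higher. Beside the counts of single markers below, 8.86% of all genes tested fell after LPS and 11.1% rose. The 10 oligodendrocyte markers summed to 5328 to 7587 CPM in sham, 3863 to 5115 CPM in LPS-vehicle and 4535 to 5614 CPM in LPS-CPD-4645 mice, with 6 of the 10 lower and 1 higher after LPS. The 10 neuron markers summed to 10224 to 11788 CPM, 8474 to 9410 CPM and 9069 to 11582 CPM, with 4 of the 10 lower after LPS. Choroid plexus markers (686 to 1101, 403 to 663 and 556 to 1115 CPM) and erythrocyte markers (1162 to 1598, 768 to 1060 and 840 to 1327 CPM) also summed to less after LPS, without overlap between sham and LPS-vehicle mice. Of 10 pericyte and smooth muscle markers 4 fell and 1 rose, and of 10 fibroblast markers 4 fell and 2 rose. The 10 astrocyte markers summed to 1819 to 2347 CPM, 2352 to 3137 CPM and 2279 to 2866 CPM, with 4 of the 10 higher, and the 10 endothelial markers to 345 to 557 CPM, 378 to 767 CPM and 401 to 573 CPM, with 4 higher and 2 lower. Mitochondrial genes took 6.47% to 12.7% of the counts in sham, 4.84% to 7.05% in LPS-vehicle and 3.97% to 8.17% in LPS-CPD-4645 libraries, with the highest share in sham mouse 4. *Mbp*, the gene of myelin basic protein and an oligodendrocyte marker named after its values were seen, had a log2 fold change of 0.07 after LPS (95% interval -0.18 to 0.31). The part of these cell types and of the mitochondrial share in the falls of the 4 members after LPS was not tested.

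Further enzymes of the pathway were read from a list of 11. After LPS, 4 of the 11 fell, 1 rose and 6 did not pass, where 8.86% of all genes tested fell and 11.1% rose, and their median log2 fold change was -0.20. The late enzymes *Nsdhl* (-0.58 ± 0.12, SE, edgeR adjusted p = 0.0021), *Dhcr7* (-0.52 ± 0.09, SE, edgeR adjusted p = 0.00035) and *Msmo1* (-0.46 ± 0.08, SE, edgeR adjusted p = 0.00056) fell. *Sc5d*, the gene of the sterol desaturase, completed the 4, at -0.44. *Tm7sf2*, 1 of 2 genes for sterol C14 reductase and named here after its values were seen, rose (0.35 ± 0.10, SE, edgeR adjusted p = 0.023), lost that call under 6 of 22 other settings (0.30 to 0.34 and adjusted p of 0.061 to 0.084 without sham mouse 1, 3 or 4), and overlaps *Vps51* on the same strand. With the members, 8 of 19 enzymes fell and 1 rose.

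With CPD-4645, 2 of the 11 rose against LPS-vehicle and 3 fell, where 14.1% of all genes tested rose and 16.4% fell. *Sc5d* rose (0.51 ± 0.10, SE, edgeR adjusted p = 0.0013), as did *Lbr*, the other gene with sterol C14 reductase activity, named after its values were seen (0.40 ± 0.11, SE, edgeR adjusted p = 0.011; without LPS-CPD-4645 mouse 2, 0.33 and adjusted p = 0.056). *Ebp*, the sterol isomerase, fell from 25.3 ± 1.96 to 16.1 ± 0.505 CPM (-0.66 ± 0.10, SE, edgeR adjusted p = 0.00015). *Pmvk*, which phosphorylates mevalonate phosphate, fell as well (-0.54 ± 0.09, SE, edgeR adjusted p = 0.00022), and *Tm7sf2* fell by 0.44 on the log2 scale. Against sham, 6 of the 11 were lower and 1 (*Lbr*, 0.56) was higher, where 19.3% and 19.5% of all genes were, with *Ebp* (-0.67) and *Dhcr7* (-0.56) furthest below.

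**Figure D4:**
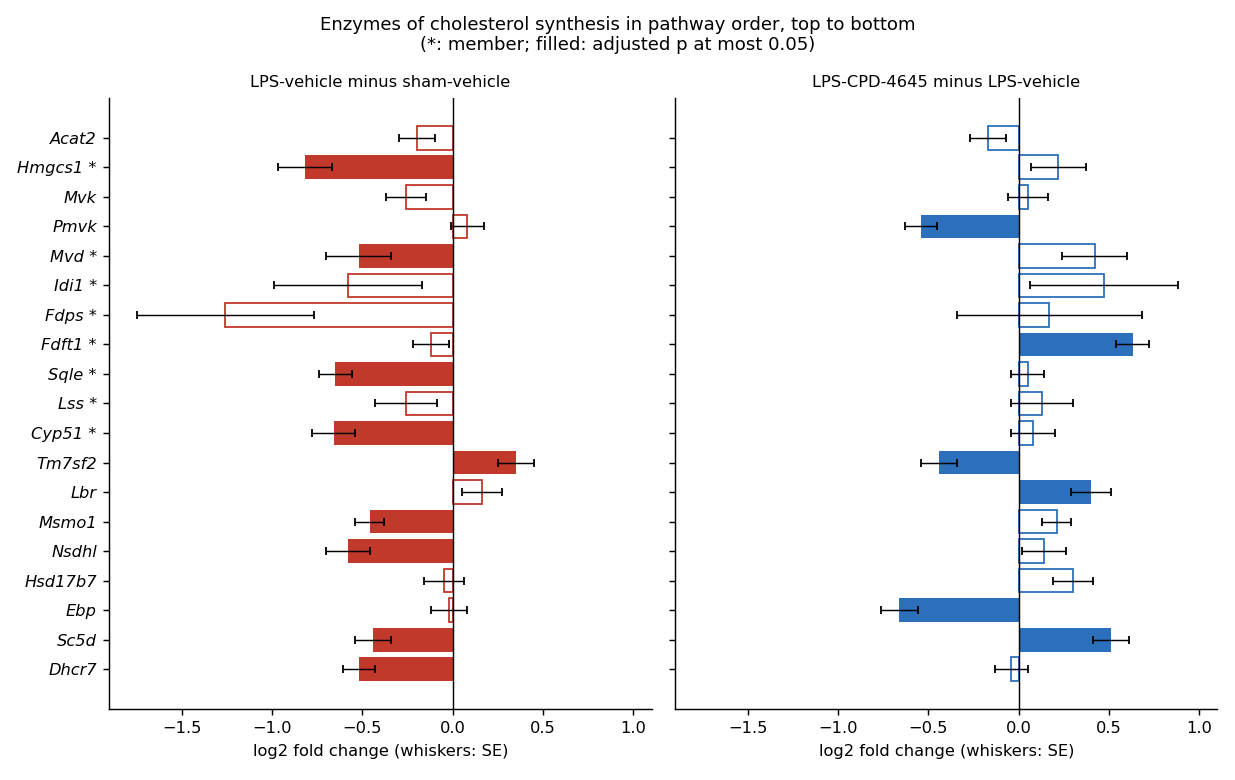
Log2 fold change (x axis) of 19 enzymes of cholesterol synthesis in pathway order (y axis, members marked by a star), after LPS on the left and with CPD-4645 against LPS-vehicle on the right. Bars are edgeR estimates, whiskers are SE and filled bars have an adjusted p of at most 0.05; 9 bars are filled on the left, 8 of them below 0, and 6 on the right, 3 above and 3 below 0.

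In the list of 11 genes of sterol sensing, 3 rose and 2 fell after LPS, and 1 rose and 3 fell with CPD-4645 against LPS-vehicle. For these and the next 2 lists, the shares over all genes tested were 11.1% risen and 8.86% fallen after LPS, and 14.1% risen and 16.4% fallen with CPD-4645. *Srebf2*, the regulator of the pathway, fell: sham mice were at 164, 192, 171 and 191 CPM and LPS-vehicle mice at 127, 133, 91.5, 104 and 123 CPM, a log2 fold change of -0.63 ± 0.10 (SE, edgeR adjusted p = 0.00012). It was at 119.5, 115, 128 and 118 CPM with CPD-4645, a difference of 0.05 from LPS-vehicle (95% interval -0.16 to 0.25, edgeR adjusted p = 0.74). *Insig1*, a sterol sensor and itself a target of SREBP, fell from 75.9 ± 16.4 to 53.4 ± 8.52 CPM after LPS (-0.49 ± 0.13, SE, edgeR adjusted p = 0.010; without sham mouse 4, -0.34 and adjusted p = 0.054). It was at 79.9 ± 4.67 CPM with CPD-4645, higher than in LPS-vehicle mice without overlap (0.57 ± 0.13, SE, edgeR adjusted p = 0.0027). *Srebf1*, which drives fatty acid synthesis, rose after LPS (0.47 ± 0.12, SE, edgeR adjusted p = 0.010). With CPD-4645 it was at -0.33 ± 0.12 against LPS-vehicle (SE, edgeR adjusted p = 0.045), a call lost under 12 of 22 other settings, among them leaving out any 1 of sham mice 1 and 3, LPS-vehicle mice 1, 2 and 3, or LPS-CPD-4645 mice 1, 2 and 4 (-0.35 to -0.22, adjusted p up to 0.17). *Insig2*, the other INSIG gene, fell there (-0.28 ± 0.07, SE, edgeR adjusted p = 0.0078). *Nr1h3*, the gene of the liver X receptor alpha, was at 3.45 ± 0.911, 5.95 ± 1.5 and 1.92 ± 0.547 CPM in the 3 groups, and it lies over *Gm13783* on the same strand. It fell with CPD-4645 (-1.68 ± 0.26, SE, edgeR adjusted p = 0.00017), the 1 gene of the pathway lists to pass 2-fold there. Its rise after LPS (0.80 ± 0.25, SE, edgeR adjusted p = 0.030) did not pass under 8 of 22 other settings, among them leaving out any 1 of sham mice 1, 3 and 4 or LPS-vehicle mice 1, 4 and 5 (0.65 to 0.81, adjusted p of 0.052 to 0.11).

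Among 9 genes of uptake and transport, *Npc1* (-0.37 ± 0.09, SE, edgeR adjusted p = 0.0046) and *Stard4* (-0.37 ± 0.12, SE, edgeR adjusted p = 0.029) fell after LPS and 0 rose. *Npc1* exports cholesterol from lysosomes and *Stard4* carries it between membranes; the call of *Stard4* was lost under 9 of 22 other settings (without 1 of sham mice 1, 3 and 4 or LPS-vehicle mice 1 and 5, -0.39 to -0.31 and adjusted p of 0.054 to 0.12). With CPD-4645, *Lrp8*, the apolipoprotein E receptor 2, rose (0.44 ± 0.11, SE, edgeR adjusted p = 0.0076), and *Lipa*, the lysosomal acid lipase, fell (-0.65 ± 0.11, SE, edgeR adjusted p = 0.00026). *Npc1* also rose there, by 0.25 on the log2 scale, a call lost under 7 of 22 other settings, among them leaving out any 1 of LPS-vehicle mice 1 and 3 or LPS-CPD-4645 mice 2 and 4 (0.20 to 0.25, adjusted p of 0.069 to 0.11).

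Of 10 genes of efflux, esterification and oxidation, 3 rose after LPS and 0 fell. *Ch25h*, the 25-hydroxylase of cholesterol, was at 0.691 to 2.05 CPM in sham mice, at 15.02 to 58.4 CPM in LPS-vehicle mice and at 20.7 to 40.5 CPM in LPS-CPD-4645 mice. Its log2 fold change after LPS was 4.84 ± 0.41 (SE, edgeR adjusted p = 1.8e-07). *Abca1*, the exporter of cholesterol to apolipoproteins, went from 29.5 ± 3.27 to 59.9 ± 9.21 CPM (1.02 ± 0.14, SE, edgeR adjusted p = 3e-05) and was at 63.8 ± 12.2 CPM with CPD-4645. *Cyp7b1*, an oxysterol hydroxylase, rose as well (0.52 ± 0.12, SE, edgeR adjusted p = 0.0056). With CPD-4645, *Soat1*, which esterifies cholesterol for storage, fell from 42.3 ± 3.03 to 23.0 ± 3.03 CPM (-0.88 ± 0.10, SE, edgeR adjusted p = 9.6e-06). The transporter genes *Abca7* (-0.69 ± 0.13, SE, edgeR adjusted p = 0.00089) and *Abcg1* (-0.60 ± 0.07, SE, edgeR adjusted p = 1.6e-05) fell too, and *Cyp27a1*, the sterol 27-hydroxylase, was at -0.48 ± 0.17 (SE, edgeR adjusted p = 0.045), a call lost under 13 of 22 other settings. These include leaving out any 1 of sham mice 1 and 3, LPS-vehicle mice 2, 4 and 5, or LPS-CPD-4645 mice 1, 3 and 4 (-0.48 to -0.37, adjusted p of 0.053 to 0.13).

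The 10 neutrophil markers summed to 1.23 to 5.62 CPM in sham, 66.6 to 281 CPM in LPS-vehicle and 7.30 to 27.8 CPM in LPS-CPD-4645 mice, and the 10 microglia markers had a median log2 fold change of -0.74 after LPS. With CPD-4645 the median of the microglia markers was -0.54 against LPS-vehicle, and 8 of 8 tested neutrophil markers fell. Among all genes tested, 11.1% rose after LPS and 16.4% fell with CPD-4645 against LPS-vehicle. The 10 monocyte and macrophage markers summed to 5.50 to 7.36 CPM in sham, 17.9 to 40.6 CPM in LPS-vehicle and 6.75 to 12.4 CPM in LPS-CPD-4645 mice, with 6 of 7 tested higher after LPS and 3 of 7 lower with CPD-4645. The part of these cells in the changes of the efflux and storage genes was not tested. *Mgll*, the gene of the enzyme that CPD-4645 inhibits, was at 109 ± 5.30, 116 ± 13.8 and 116 ± 7.76 CPM in the 3 groups.

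**Figure D5:**
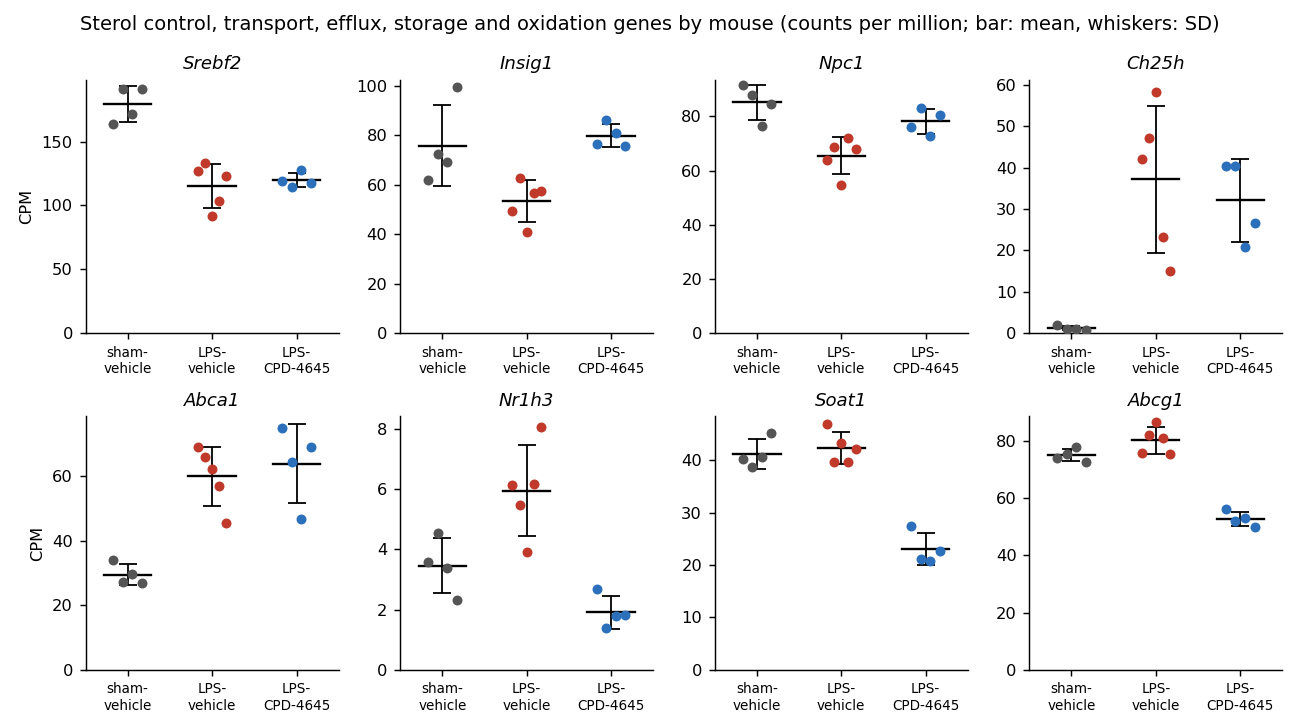
CPM (y axis, from 0) of 8 genes of sterol control, transport, oxidation, efflux and storage in each mouse of the 3 groups (x axis). Points are mice, long bars are means and whiskers are SD (n = 4, 5 and 4); *Srebf2* is lower in both LPS groups, *Insig1* and *Npc1* have their lowest mean in LPS-vehicle mice, *Ch25h* and *Abca1* are higher in both, and *Soat1* and *Abcg1* are lowest with CPD-4645.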

How the data were processed

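The authors isolated brain vasculature, prepared stranded mRNA libraries, sequenced 75-base single-end reads, aligned them to GRCm38 (mm10) with STAR 2.5.2a, and deposited raw counts of reads per gene (annotation GENCODE M9 basic) without normalization. Which strand column of the aligner was kept is not given in the sources used here. How reads from overlaps on opposite strands were counted is therefore not known. Each library is 1 mouse, grouped by its label. Symbols and positions came from GENCODE M21 on the same build, which matched 47224 of 47643 identifiers, and promoter windows from RefSeq (GRCm38.p6).

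Counts were filtered with filterByExpr (minimum count 10, minimum total 15; 17285 genes), scaled by TMM (0.908 to 1.08) and fitted in edgeR 4.0.16 (R 4.3.3) (quasi-likelihood, 1 term per group) over all 13 mice, without covariates, at a common dispersion of 0.0334. Adjusted p-values are Benjamini-Hochberg over all genes tested, in each of 3 comparisons. SE and 95% intervals come from the same fit. CPM used TMM-scaled totals, and log2 CPM a prior count of 2. At totals of 7813559 and more, replicates differed beyond counting error in each of 22 pairs (chi-square per gene 9.26 to 56.54).

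The members and lists were chosen with earlier results of these data known. Named genes are the 8 members, up to 4 called genes of each list with the largest change, *Srebf2*, *Insig1*, *Abca1*, *Srebf1*, *Mgll*, and the 5 genes of most similar profile; others are said to be chosen after their values were seen. Some genes of these pathways are not reported here and enter no list count. Alternatives were limma-voom (limma 3.58.1, the test of the study), DESeq2 1.42.0, DESeq2 size factors, no filter, a mean count of at least 50, only the groups compared, a test against a 1.2-fold change (glmTreat), a replicate block, each mouse left out and, added after seeing the data, both shallowest libraries left out. Python 3.11.15, pandas 2.3.3, numpy 2.4.6 and matplotlib 3.10.9 were used.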

Additional observations from a re-analysis of the deposited data

Results flagged for a closer look

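Each group of 4 or 5 mice was searched for a mouse far from the rest (Dixon's test at 95%) over 141 groups of values, where chance alone marks about 1 in 20, and 9 were marked. Among the members, *Fdps* in LPS-vehicle mouse 3 was at 0.126 CPM (1 read in the shallowest library), against 0.628 to 0.686 CPM in the other 4. *Sqle* was at 80.7 CPM in sham mouse 4, against 64.0 to 66.8 CPM, and at 40.7 CPM in LPS-vehicle mouse 3, against 44.2 to 45.3 CPM. Sham mouse 4 also had the highest oligodendrocyte marker sum of the 13 mice, 7587 CPM, whose part in these values was not tested.

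*Pmvk* was at 41.8 CPM in LPS-vehicle mouse 4, against 50.2 to 51.5 CPM. *Lrp8* was at 10.8 CPM in LPS-vehicle mouse 2, against 12.1 to 12.6 CPM. *Mbtps2* was at 22.3 CPM in sham mouse 2, against 35.9 to 38.2 CPM, and *Cyp7b1* at 17.1 CPM in LPS-CPD-4645 mouse 4, against 21.9 to 22.8 CPM. The neuron markers summed to 11582 CPM in LPS-CPD-4645 mouse 4, against 9069 to 9440 CPM, and the neutrophil markers to 281 CPM in LPS-vehicle mouse 2, against 66.6 to 111 CPM.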

How the results depend on the processing

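The falls of *Hmgcs1*, *Sqle* and *Cyp51* after LPS and the rise of *Fdft1* with CPD-4645 passed under each of the 22 other settings run. With each mouse left out, the number of members called was 3 to 5 after LPS, 1 to 2 with CPD-4645 against LPS-vehicle and 4 against sham; the pathway genes called were 12 to 19, 15 to 23 and 24 to 29, against 17, 21 and 28 of 60, where 19.9%, 30.5% and 38.8% of all genes tested were called. Without the 2 shallowest libraries, a setting chosen after seeing the data, 2 members passed with CPD-4645, *Mvd* being added, as it was without LPS-CPD-4645 mouse 1 or LPS-vehicle mouse 2. Against a 1.2-fold change (glmTreat) the pathway genes called were 6, 10 and 17, since that test asks for a larger change. Of the log2 fold changes of named genes under other settings, 1778 kept direction and side of the threshold, 123 no longer passed, 6 newly passed and 23 changed sign.

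The changes of sign were all of values that did not pass. Over the fits with 1 mouse left out, the log2 fold change with CPD-4645 against sham ranged from -0.18 to 0.02 for *Mvd*, from -0.30 to 0.08 for *Idi1* and from -0.01 to 0.25 for *Insig1*; and that against LPS-vehicle ranged from -0.24 to 0.49 for *Fdps*, from -0.01 to 0.14 for *Cyp51*, from -0.02 to 0.10 for *Srebf2* and from -0.04 to 0.06 for *Mgll*. Without the 2 shallowest libraries, *Mvd* was at 0.01 against sham and *Srebf2* at -0.02 against LPS-vehicle. *Fdps* was at -0.04 with limma-voom, and *Mgll* at 0.01 with DESeq2, with its size factors and with only the groups compared.

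The replicate numbers of the labels were not used as pairs in the main fit. Deviations of same-numbered mice correlated at -0.0346 to 0.1137 over 12 pairs, and 6 of 13 mice correlated best with their own number. No chance rate was set beside these values, and a shared batch was not tested. With the replicate number as a block, 3 members passed after LPS, 1 with CPD-4645 and 4 against sham, *Mvd* after LPS was at -0.53 (edgeR adjusted p = 0.069), and the differences of *Abca1* and *Mgll* with CPD-4645 were -0.0011 and 0.06. *Idi1* and *Fdps* had few reads in every library. Whether reads that fit more than 1 gene were left out of their counts or entered them was not tested.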

Other observations

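Branches that leave the pathway, or run beside it, were read from 2 further lists. Of 10 genes of fatty acid synthesis, 2 fell after LPS and 0 rose, where 8.86% of all genes tested fell and 11.1% rose. These were *Acly*, which makes the acetyl-CoA used by both pathways (-0.36 ± 0.09, SE, edgeR adjusted p = 0.0069), and *Scd2*, the stearoyl-CoA desaturase of brain (-0.35 ± 0.09, SE, edgeR adjusted p = 0.0069), which went from 1221 ± 36.7 CPM (SD, n = 4) to 955 ± 116 CPM (n = 5). With CPD-4645 against LPS-vehicle, *Acss2*, which makes acetyl-CoA from acetate (-0.48 ± 0.10, SE, edgeR adjusted p = 0.0020), *Elovl6*, a fatty acid elongase (-0.41 ± 0.13, SE, edgeR adjusted p = 0.027), and *Me1*, a malic enzyme (-0.26 ± 0.08, SE, edgeR adjusted p = 0.024), fell and 0 rose, where 16.4% of all genes fell and 14.1% rose. Leaving out LPS-CPD-4645 mouse 1, 2 or 3 or LPS-vehicle mouse 3 ended the call of *Elovl6* (-0.39 to -0.33, adjusted p of 0.056 to 0.093), and leaving out LPS-CPD-4645 mouse 2 or 4 that of *Me1* (-0.25 to -0.23, adjusted p of 0.068 to 0.079).

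Branches lead from farnesyl diphosphate to dolichol, ubiquinone and protein prenylation, and 9 of their genes were read. After LPS, 0 of the 9 passed by edgeR, where 19.9% of all genes tested did. Of the 9, 0 had an unadjusted p under 0.05, against 5568 of 17285 genes tested. With CPD-4645 against LPS-vehicle, *Nus1*, of dolichol synthesis, rose (0.28 ± 0.10, SE, edgeR adjusted p = 0.039), and *Pdss2*, of ubiquinone synthesis, fell (-0.43 ± 0.12, SE, edgeR adjusted p = 0.0091). By the same rule, 14.1% of all genes tested rose there and 16.4% fell. The call of *Nus1* was lost under 11 of 22 other settings, among them leaving out any 1 of LPS-vehicle mice 1, 2, 3 and 5 or LPS-CPD-4645 mice 1, 2 and 4 (0.23 to 0.28, adjusted p of 0.063 to 0.13).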
